A study of Mus musculus with 21 samples.

Results

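Methylated DNA was compared between wild-type (WT) mouse synovial fibroblasts that had been exposed to TNF and untreated WT synovial fibroblasts, both taken from animals of 8 weeks. Of the 16898 regions that the authors listed as different between these groups, the 16285 on chromosomes 1 to 19 are described here, and they are part of 49307 listed regions over 4 such comparisons in the series. All cells carried the wild-type genotype on a CBA x C57BL/6J background and were cultured to passage 4 or 5, so no transgene was involved on either side. The TNF dose and the hours of exposure are not stated in the sources at hand. Neither is whether replicates came from separate cultures or animals, and p-values then measure only the spread between these libraries, which may be technical. Each group had 3 samples, but the first and second values of the TNF-treated group were identical in every region. They were counted as 1 library, which left 2 TNF-treated libraries against 3 untreated ones.

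Synovial fibroblasts line the joint and respond to TNF, the cytokine that drives inflammation in arthritis. TNF binds its receptors at the cell surface, adaptor proteins of the TRADD and TRAF type pass the signal to IkB kinases and MAP kinases, and NF-kB and AP-1 factors then switch on cytokine, chemokine and matrix protease genes. DNA methylation at CpG dinucleotides is the mark measured here. In MethylCap-seq, sheared DNA is bound by a protein domain that recognises methylated CpG and the bound fraction is sequenced, so that a region's read value rises with the density of methylated CpGs in it and with its capture. The value of a region is a normalized read value, that is, reads divided by 1 factor per library. A methylation level in percent cannot be read from it, and it carries no expression level, so that the label synovial fibroblast could not be checked against marker transcripts.

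The capture binds methylated CpG, and the sequences before the start of 10 genes are shown with each CpG in capitals. These genes had a region at or next to the start that was lower (Cxcr1, Padi1, Ptprh, Adam6a, Krt27) or higher (Jmjd8, Ldhd, Vcp, Asah2, Pebp1) after TNF, and a single RefSeq start. The windows are not the captured regions, whose sequence in build mm9 was not used here. Jmjd8's region, of 550 bp, was centred 388.5 bp from the start and those of Ldhd, Vcp and Pebp1 220.5, 202.5 and 146.5 bp from it, so the CpGs shown need not be those captured. Each sequence gives the 250 bases before the RefSeq start in build GRCm38.p6, 5′ to 3′ on the strand of the gene.
Cxcr1, chr1:74194632-74194881, minus strand: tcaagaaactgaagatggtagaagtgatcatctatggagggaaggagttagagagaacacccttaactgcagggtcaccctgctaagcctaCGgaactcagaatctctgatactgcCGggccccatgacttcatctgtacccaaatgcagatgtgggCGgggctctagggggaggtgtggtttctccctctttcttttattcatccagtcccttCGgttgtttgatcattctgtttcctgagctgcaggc
Padi1, chr4:140845779-140846028, minus strand: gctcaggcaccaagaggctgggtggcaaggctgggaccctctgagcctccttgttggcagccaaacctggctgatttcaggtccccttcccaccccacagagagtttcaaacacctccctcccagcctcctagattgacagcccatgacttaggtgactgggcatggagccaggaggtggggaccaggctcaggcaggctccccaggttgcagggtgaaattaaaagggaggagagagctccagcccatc
Ptprh, chr7:4604042-4604291, minus strand: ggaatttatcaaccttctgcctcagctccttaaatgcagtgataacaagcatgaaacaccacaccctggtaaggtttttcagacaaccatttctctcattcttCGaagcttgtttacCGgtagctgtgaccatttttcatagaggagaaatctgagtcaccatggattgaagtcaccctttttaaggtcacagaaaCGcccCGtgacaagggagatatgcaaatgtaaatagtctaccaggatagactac
Adam6a, chr12:113543658-113543907, plus strand: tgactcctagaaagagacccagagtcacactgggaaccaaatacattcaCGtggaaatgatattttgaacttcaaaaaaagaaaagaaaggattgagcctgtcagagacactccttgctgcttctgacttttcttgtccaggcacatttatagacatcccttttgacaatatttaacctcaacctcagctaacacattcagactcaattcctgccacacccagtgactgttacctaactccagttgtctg
Krt27, chr11:99351119-99351368, minus strand: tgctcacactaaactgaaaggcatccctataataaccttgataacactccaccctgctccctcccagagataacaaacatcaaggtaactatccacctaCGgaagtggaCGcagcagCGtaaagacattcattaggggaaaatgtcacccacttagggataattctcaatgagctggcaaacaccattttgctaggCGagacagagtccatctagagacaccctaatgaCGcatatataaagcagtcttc
Jmjd8, chr17:25828793-25829042, plus strand: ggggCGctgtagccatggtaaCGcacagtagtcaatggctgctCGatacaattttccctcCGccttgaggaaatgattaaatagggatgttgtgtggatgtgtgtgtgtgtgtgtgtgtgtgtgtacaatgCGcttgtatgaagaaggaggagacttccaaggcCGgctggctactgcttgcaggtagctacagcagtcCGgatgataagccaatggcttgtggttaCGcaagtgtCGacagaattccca
Ldhd, chr8:111630337-111630586, minus strand: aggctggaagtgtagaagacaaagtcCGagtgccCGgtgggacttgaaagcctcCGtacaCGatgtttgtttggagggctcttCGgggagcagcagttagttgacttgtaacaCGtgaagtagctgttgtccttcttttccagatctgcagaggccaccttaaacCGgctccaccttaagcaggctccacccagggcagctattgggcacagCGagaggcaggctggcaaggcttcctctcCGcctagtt
Vcp, chr4:43000508-43000757, minus strand: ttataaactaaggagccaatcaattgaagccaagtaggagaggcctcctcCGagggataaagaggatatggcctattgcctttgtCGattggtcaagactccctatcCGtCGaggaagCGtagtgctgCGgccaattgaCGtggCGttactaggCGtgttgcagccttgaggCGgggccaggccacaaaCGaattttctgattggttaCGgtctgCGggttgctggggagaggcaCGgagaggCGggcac
Asah2, chr19:32103141-32103390, minus strand: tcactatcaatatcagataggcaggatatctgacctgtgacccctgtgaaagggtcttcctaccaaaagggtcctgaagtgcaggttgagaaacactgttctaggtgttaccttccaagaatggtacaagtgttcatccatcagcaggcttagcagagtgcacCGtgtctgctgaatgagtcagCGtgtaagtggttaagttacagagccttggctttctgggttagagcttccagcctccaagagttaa
Pebp1, chr5:117287565-117287814, minus strand: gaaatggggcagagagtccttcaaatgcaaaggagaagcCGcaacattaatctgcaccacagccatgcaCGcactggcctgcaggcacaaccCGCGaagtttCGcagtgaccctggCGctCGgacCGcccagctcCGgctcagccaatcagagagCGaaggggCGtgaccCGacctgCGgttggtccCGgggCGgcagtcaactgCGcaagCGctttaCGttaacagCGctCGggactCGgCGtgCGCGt

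The number of CpGs in these windows ran from 0 at Padi1 to 24 at Pebp1. Among the lost ones Adam6a had 1, Cxcr1 and Ptprh had 4 each and Krt27 had 5. Among the gained ones Asah2 had 2, Jmjd8 and Ldhd had 9 each and Vcp had 15. The 32851 RefSeq promoter windows of the same length held a median of 6, and 92.1% of them held at least 1. CpG numbers were not compared between gained and lost promoters, since only 12 of 20 gained and 13 of 19 lost genes with a region within 250 bp of the start could be matched.

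The listed regions also included 4 annotated to microRNA genes, and 3 of these genes had mature sequences in RefSeq. The seed, bases 2 to 8, which pairs with target transcripts, is in capitals. No seed was shared among these 6 arms.
miR-490-5p: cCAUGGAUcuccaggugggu
miR-490-3p: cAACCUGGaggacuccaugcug
miR-300-5p: uUGAAGAGagguuauccuuugu
miR-300-3p: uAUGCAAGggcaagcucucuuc
miR-7b-5p: uGGAAGACuugugauuuuguuguu
miR-7b-3p: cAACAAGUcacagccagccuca

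The libraries differed in the spread of their values, which bears on every comparison that follows. The median value over autosomal regions was 15.9 and 14.9 in the TNF-treated libraries. It was 34.2, 33.5 and 24.6 in the untreated ones. Upper quartiles were close, at 67.7 and 65.7 against 66.8, 66.3 and 61.4, while lower quartiles were 6.97 and 6.2 against 20.6, 19.8 and 14.7. TNF-treated libraries therefore had lower values among weaker regions and close ones at the upper quartile. In regions with a mean of 100 to 200 their values were higher, as given below. In its median and lower quartile, though not in its upper one, the third untreated library lay between the TNF-treated and the other untreated libraries. That library was the untreated one nearest to the TNF-treated libraries at 72.7% of the regions later called lost and at 51.6% of those called gained. Reads recovered in the listed regions numbered 1285306 to 1858694 per library. A few regions held much of these totals, which therefore do not give the depth of the other regions. At chr9:3011851-3013050 alone, 430001 reads lay in the TNF-treated group, whose library totals were 1722036 and 1446888, and 441462 in the untreated group. In bulk DNA, a change in the mix of cells and a change within cells cannot be told apart.

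**Figure D1:**
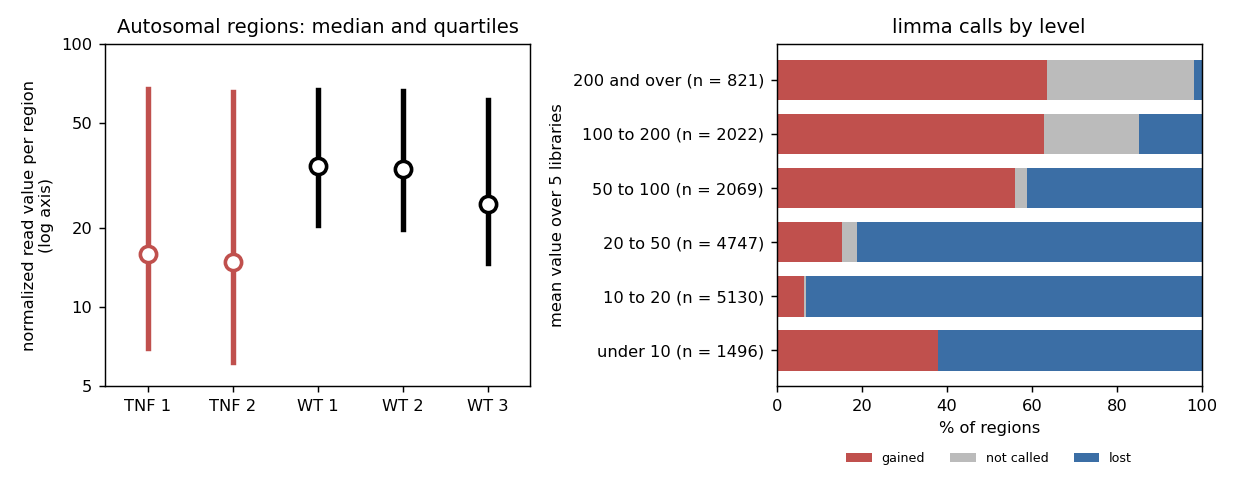
The left panel shows the median (circle) and the quartiles (bar) of the normalized read value over 16285 autosomal regions in each library on a log axis, for the 2 TNF-treated (red) and 3 untreated (black) libraries. The right panel shows the share of regions gained, lost or not called in classes of mean value over the 5 libraries. Gains made up 38.0% of regions under 10, 6.43% at 10 to 20 and 63.7% at 200 and over.

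On the scale of the deposited values, most listed regions were lower after TNF, a balance that depends on that scale, as given below. Across the whole table, limma with Benjamini-Hochberg adjustment called 93.8% of regions (adjusted p under 0.05), 29.8% gained and 64.1% lost. On the autosomes 4580 regions were gained (28.1%), 10710 were lost (65.8%) and 995 were not called, so that 93.9% were called. The regions had been selected by the authors for a difference between these same groups, so a high share of calls is a property of the list. For the same reason the limma p-values of single regions given below are no independent tests. Adjustment changed little, with 15904 regions of the whole table under 0.05 in limma before it and 15855 after. The authors' deposited table marks 5219 of the autosomal regions as higher and 11066 as lower after TNF. Libraries did not overlap, with both TNF-treated values above all untreated ones, in 30.6% of autosomal regions, and with both below in 65.2%. Without the third untreated library the counts were 4507 gained and 10799 lost. Without the first or the second TNF-treated library they were 2540 and 8055, or 2654 and 8937, so the number of gains rests on having both.

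The balance of gains and losses also rests on the scale of the libraries. The median difference between TNF-treated and untreated libraries was -1.11 on the scale of log2(value + 1), which is used for every difference below. When each library was centred on its own median, all differences moved up by 0.94, and 5328 autosomal regions were gained (32.7%) against 967 lost (5.94%). A difference above -0.94 is therefore higher, and one below it lower, than that of a region at the centre of its library, and the centred reading is given below for each gene list and where a direction turns. Which scale is right cannot be told from the listed regions alone. Leaving out the third untreated library changed no call or direction among the 98 regions named by rule.

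The direction followed the level of the region from a mean of 10 upwards. Among 5130 regions with a mean of 10 to 20 over the 5 libraries, 6.43% were gained and 93.1% were lost. Among 2022 regions with a mean of 100 to 200, 62.8% were gained and 14.7% were lost. A typical weak region in the first class held medians of 5.97 and 4.96 in the TNF-treated libraries against 21.4, 20.6 and 14.7 in the untreated ones. In the second class the medians were 156 and 166 against 129, 131 and 136, so that gains in strong regions were small. The median difference was -1.58 in the first class and 0.42 in the second. Of the 1496 regions with a mean under 10, 38.0% were gained and 62.0% lost.

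Gene bodies and intergenic DNA differed in their share of gains, also among regions of like level. Of 8177 regions in gene bodies 1618 were gained (19.8%) and 6042 lost (73.9%), while of 7181 intergenic regions 38.6% were gained and 55.4% lost. At a mean of 50 to 100, 40.8% of gene body regions and 72.3% of intergenic ones were gained. At 20 to 50 the shares were 10.7% and 22.3%. Promoter regions 1 to 3 kb from a start had 119 gained and 537 lost of 688. Those at 250 bp to 1 kb had 52 gained and 133 lost of 194. Of the 45 regions within 250 bp of a start 20 were gained and 19 lost, the only one of the 5 classes with as many gains as losses.

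Per library, the mean log2(value + 1) of a class was set against the mean of that library over all autosomal regions. Regions within 250 bp of a start lay at 0.28 and 0.62 in the TNF-treated libraries against -0.16, -0.22 and -0.05 in the untreated ones, a difference of 0.60, or 0.33 with a pseudocount of 10. Intergenic regions lay at 0.27 and 0.30 against 0.04, 0.05 and 0.10. Gene bodies lay at -0.19 and -0.22 against -0.01, -0.02 and -0.06, and promoters at 1 to 3 kb at -0.50 and -0.56 against -0.27, -0.28 and -0.30. In these 4 classes the libraries of the groups did not overlap, with an exact two-sided permutation p of 0.1, the smallest that 2 against 3 libraries allow, and an adjusted value of 0.125 over 5 classes. The regions had been selected for a difference between these same groups, so this p describes the order of the libraries and is no independent test. Gene body and intergenic regions make up most of the autosomal regions, so their differences from the library mean are not independent of each other. Promoters at 250 bp to 1 kb overlapped (-0.16 and -0.11 against -0.17, -0.16 and -0.14, exact permutation p = 0.5). Without that centring the difference was -0.13 for the regions within 250 bp and -0.51 for intergenic regions, so these 2 classes were higher only relative to the rest of the library.

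**Figure D2:**
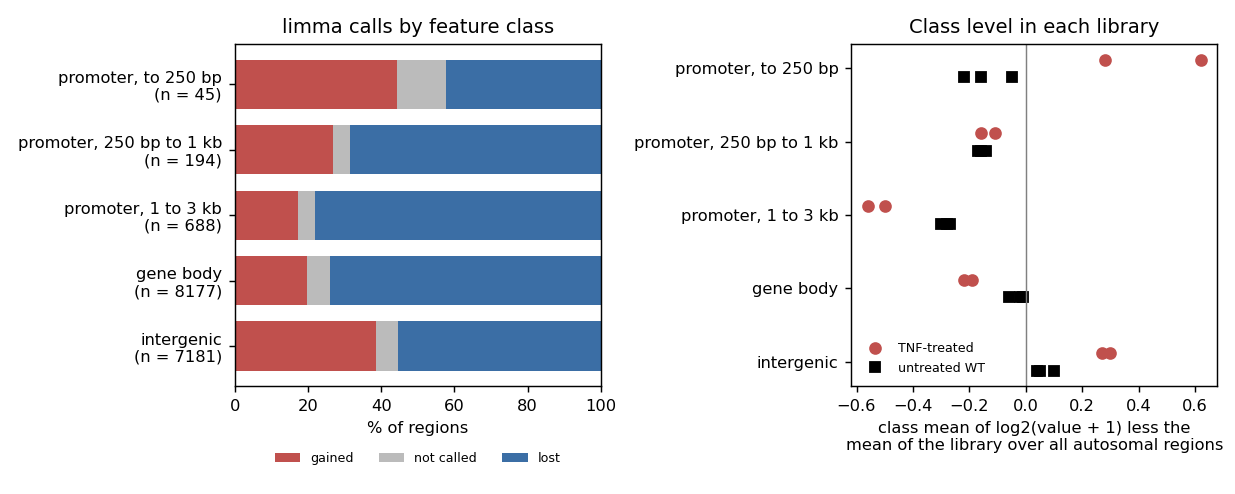
Shares of regions gained, not called and lost in 5 feature classes (left), and the class mean of log2(value + 1) less the library's mean over all autosomal regions (right), 1 point per library, circles for the 2 TNF-treated and squares for the 3 untreated libraries. TNF-treated points lie right of the untreated ones in regions within 250 bp of a start and in intergenic regions, and left of them in gene bodies and at 1 to 3 kb.

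Within gene bodies, gains were more frequent far from the start and in long genes. They made up 14.4% of regions 3 to 20 kb from the start, 18.4% at 20 to 100 kb and 31.2% beyond 100 kb. By gene length, 12.0% of regions were gained in genes under 25 kb and 33.8% in genes of 200 kb and over, at median levels of 24.8 and 24.7. A region beyond 100 kb can lie only in a gene longer than that, and distance and gene length were not separated. Among chromosomes, 11 had the smallest share of gains (15.2% of 1042 regions) and 3 the largest (39.7% of 765). Losses were also dense in places. In windows of 2 Mb, which held a median of 10 listed regions, the fullest were 114 to 116 Mb on chromosome 5, with 67 regions of which 58 were lost and 1 gained, and 124 to 126 Mb on chromosome 8, with 67 regions of which 61 were lost and 1 gained.

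At transcription starts, Cxcr1, which encodes a receptor for neutrophil-attracting chemokines, held 1.99 and 4.96 after TNF against 22.3, 18.3 and 17.2 in untreated cells, in a region of build mm9 at chr1:74240801-74241650 that spans the start. The difference was -2.25 (SE 0.47, limma adjusted p = 0.0109), or -1.31 with centred libraries, and all TNF-treated values were low. Padi1, an enzyme that converts arginine to citrulline in proteins, held 1.99 and 4.96 against 14.6, 19.04 and 11.1 at chr4:140401601-140402100. Siglec15, a sialic acid receptor of osteoclasts, held 2.99 and 2.48 against 13.7, 16.0 and 9.83. The values of both groups were apart in each of these. Itgb2, the beta chain of leukocyte integrins, held 4.98 and 4.96 against 14.6, 14.5 and 17.2, again without overlap. Ptprh, a receptor phosphatase, fell by 1.54, and Bmp4, a bone morphogenetic protein, fell by 1.39, from 20.6, 19.8 and 13.5 to 4.98 and 7.44. With centred libraries these were still negative, at -0.60 and -0.45, and no longer called. Of the 19 lost regions within 250 bp of a start 18 were no longer called with centred libraries, among them Padi1 (-0.94), Siglec15 (-0.96) and Itgb2 (-0.51), and Cxcr1 was the exception. The 19 ran from -2.25 to -0.74, at mean levels with a median of 17.9, and Gm16432, Gm749 and Scn4a turned positive with centred libraries (0.02, 0.07 and 0.20).

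The 20 regions that rose at starts ran from 0.39 to 2.05 and had a higher median level of 38.5. Tmx2, a thioredoxin-related membrane protein, held 12.0 and 9.92 after TNF against 1.71, 1.52 and 2.46. Acp5, the tartrate-resistant acid phosphatase that marks osteoclasts, held 12.0 and 12.4 against 4.28, 0.76 and 4.91 in a region centred 15.5 bp from its start, a difference of 1.79 (SE 0.63, limma adjusted p = 0.0198). A second Acp5 region, within 3 kb of the start, fell from 19.7, 25.1 and 22.1 to 9.95 and 7.44, so the gene moved in both directions. Vcp, an ATPase that extracts ubiquitinated proteins, held 15.9 and 32.2 against 11.1, 5.33 and 7.37 at chr4:43012751-43013600. Pebp1, an inhibitor of Raf kinase, held 33.9 and 59.5 against 21.4, 19.8 and 23.4 at chr5:117737051-117737800. Ldhd, a D-lactate dehydrogenase, held 9.95 and 14.9 against 2.57, 3.05 and 4.91. The gained regions of higher level had smaller differences. Krt25, a hair follicle keratin, held 183 and 197 against 121, 131 and 113 (difference 0.64), and Odf1, a sperm tail protein, held 130 and 136 against 91.6, 80.7 and 98.3 (0.56). Fshr, the receptor for follicle-stimulating hormone, held 103 and 125 against 49.7, 67.0 and 74.95 (0.84). All 20 gained regions were without overlap between the groups and stayed called with centred libraries. Centring moved every difference up by 0.94, so gains could hardly lose their call and this is no support for them. It also turned 3 regions at starts that were not called as deposited into gains. The starts named here were picked for description after their values were seen.

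**Figure D3:**
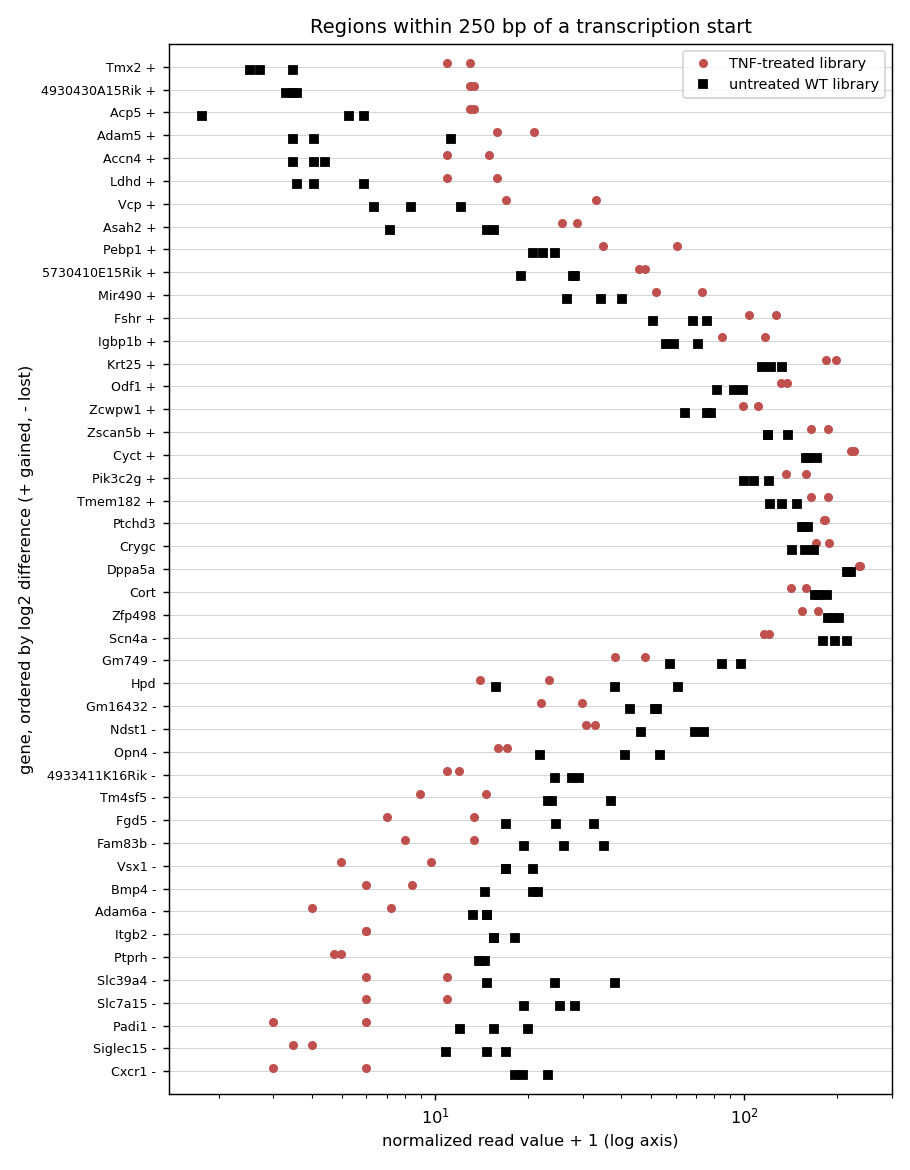
Normalized read value plus 1 on a log axis in each library for the 45 regions within 250 bp of a transcription start, ordered by log2 difference, with circles for the 2 TNF-treated and squares for the 3 untreated libraries. Regions lost after TNF, such as Cxcr1, lie mostly under 100, and those not called lie mostly over 100.

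Farther out in promoters, the deepest losses reached 0. Tdrd12, a Tudor protein of the piRNA pathway, had no read in either TNF-treated library and 17.1, 15.2 and 12.3 in the untreated ones. Tlx2, a homeobox factor of the enteric nervous system, likewise had none against 15.4, 16.8 and 12.3. With a floor of 3 reads over the TNF-treated group, each was at least 9.16-fold lower. Tbxas1, the thromboxane synthase, had 2 reads after TNF and 55 without, a 15.1-fold lower value with a 95% counting interval of 3.99 to 128. Atp5j, a subunit of ATP synthase, was 14.8-fold lower (3.91 to 126), and Tnni2, the fast skeletal muscle troponin I, 10.8-fold lower (3.52 to 53.9). Krt27, a hair follicle keratin whose promoter is shown above, had 1 read against 40, a 22.0-fold lower value (3.73 to 890). Slc10a5, a solute carrier, had values of 6.97 and 0 against 32.5, 22.1 and 25.8. Acsl1, which activates long-chain fatty acids, had 0 and 4.96 against 20.6, 29.7 and 14.7. The fitted differences of these 8 losses, which near 0 depend on the pseudocount, ran from -3.98 to -3.16, and from -3.04 to -2.22 with centred libraries.

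The largest promoter gains lay in regions with few reads in untreated cells. Jmjd8, a JmjC domain protein, held 10.9 and 9.92 after TNF against 1.71, 1.52 and 0 (difference 2.59, SE 0.63, limma adjusted p = 0.0109). Ido1, which degrades tryptophan and is induced by interferon, held 10.9 and 13.6 against 3.42, 1.52 and 0. Hes1, a repressor downstream of Notch, held 12.0 and 14.9 against 5.99, 3.05 and 0. Rrad, a small GTPase, and Klrg2, a lectin-like receptor, differed by 2.45 and 2.81. Bhlhe22, a neural transcription factor, Atg10, an autophagy enzyme, and Fam101a differed by 2.22, 2.19 and 2.18. Atg10 had the highest untreated values of the 8, at 12.8, 9.90 and 0, against 25.9 and 21.1 after TNF. In each of these 8 regions the third untreated library was at 0, and they rest on 19 to 43 reads in the TNF-treated group. With a pseudocount of 0.1 none of the 8 passed the test (limma adjusted p from 0.0703 to 0.122). Hes1, Atg10 and Fam101a were not called without either of the TNF-treated libraries, nor was Bhlhe22 without the first.

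Gene bodies held changes of similar size. Qpct, which forms pyroglutamate at protein ends, had the largest gain, with 31.9 and 141 against 3.42, 3.05 and 1.23 (difference 4.32, SE 0.63, limma adjusted p = 0.0109), and its 2 TNF-treated libraries differed widely from each other. Nebl, which encodes the actin-binding nebulette, was 17.3-fold higher (4.17 to 153) on 19 against 2 reads, and She, an SH2 adaptor, 11.5-fold higher (3.39 to 60.8). Fmn1, a formin needed for limb outgrowth, Park2, the ubiquitin ligase parkin, and Ptcd2, a mitochondrial RNA factor, differed by 3.11, 3.03 and 2.72. Apart from Qpct these gains also missed the threshold with a pseudocount of 0.1 (limma adjusted p from 0.0744 to 0.121). Among losses, Dqx1 was at 0 in both TNF-treated libraries against 15.4, 18.3 and 13.5, at least 9.71-fold lower, and Ubr3, a ubiquitin ligase, was at least 6.96-fold lower. Dqx1 and Tlx2 are listed on the same stretch of chromosome 6, at chr6:83015751-83016600 and chr6:83022351-83023100. Ppfia4, a synaptic scaffold, was 23.4-fold lower (6.27 to 196), and Birc6, an inhibitor of apoptosis, 18.4-fold lower (4.90 to 155). Lrguk and Helz were 17.9-fold (4.75 to 151) and 25.8-fold lower (4.42 to 1040). The largest intergenic gains, at chr5:39886451-39887400 and chr12:22374651-22375700, held 14.9 and 44.6 against 0.86, 0 and 3.69, and 35.8 and 93.0 against 2.57, 3.05 and 7.37. The largest intergenic losses, at chr7:27616451-27617250 and chr11:53991801-53992350, were at 0 after TNF, each at least 8.98-fold lower.

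Among microRNA genes, only the Mir490 region, within 250 bp of its start, was gained. It held 50.8 and 71.9 after TNF against 25.7, 33.5 and 39.3 (difference 0.88, SE 0.26, limma adjusted p = 0.0119). A region centred 328.5 bp from the start of Mir300 fell from 17.98, 14.5 and 16.0 to 3.98 and 3.72. One centred 2609.5 bp from the start of Mir7b fell from 22.3, 19.8 and 17.2 to 7.96 and 4.96. A region annotated to Mir297-1, but centred 9824.5 bp from its start, fell from 34.2, 12.2 and 13.5 to 5.97 and 3.72. With centred libraries, where every difference moved up by 0.94, the Mir490 region was at 1.82. The 3 losses, at -0.88, -0.56 and -0.78, were then no longer called.

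On the deposited scale, genes of the TNF pathway itself carried losses. Of 16 regions in 12 of 37 genes for TNF receptors and proximal signalling, 15 were lost and 0 gained (65.8% lost over all autosomal regions), with a median difference of -1.22 as deposited and -0.28 centred. With centred libraries 1 of the 16 was gained and 0 were lost, and the centred median over all autosomal regions was -0.17. Tnfrsf1a, the main TNF receptor, held 1.99 and 6.2 in its gene body against 14.6, 12.2 and 14.7. The adaptor gene Tradd fell at 1 to 3 kb from its start, from 29.1, 19.8 and 24.6 to 9.95 and 9.92. Traf2, which recruits the IkB kinases, held 61.7 and 58.3 against 93.3, 96.0 and 98.3, a difference of -0.67 that turned to 0.27 with centred libraries. Both Traf3 regions and the Traf5 region were lost, while the Traf6 region was not called (151 and 155 against 168, 164 and 161). All 3 Cflar regions, in the gene for the caspase 8 inhibitor, were lost, from -1.80 to -0.87 (centred, -0.86 to 0.07). Casp8 (-1.24), Map3k14 (-1.74), Map3k8 (-1.41) and the feedback inhibitor Tnfaip3 (-1.15) fell as well.

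The downstream arms also held mostly losses on the deposited scale. Of 10 regions in 5 NF-kB genes 9 were lost and 0 gained, with a median of -1.22 as deposited and -0.28 centred, where 2 were lost and 1 gained. Relb, a subunit of the non-canonical pathway, had 3 lost regions, 1 of them at 0.09 with centring, and at chr7:20196351-20196850 it held 2.99 and 3.72 against 25.7, 21.3 and 9.83. Rela fell by 2.15 and the kinase gene Ikbke by 2.22 and 1.24. Ikbkb, the IkB kinase of the canonical pathway, had 2 lost regions, at -0.78 (0.15 centred) and -1.20, and 1 strong region that was not called (273 and 293 against 231, 210 and 265). Of 25 regions in 15 MAP kinase and AP-1 genes, 22 were lost and 1 gained, with a median of -1.41 as deposited and -0.47 centred, where 3 were lost and 2 gained. Both regions of Mapk14, the p38 kinase, fell, by 1.58 and 1.98, and Map4k4 fell in all 3. The gain lay in Map2k5, at 9.95 and 8.68 against 0 in each untreated library, at least 10.3-fold higher (limma adjusted p = 0.25 with a pseudocount of 0.1), while a second Map2k5 region fell by 1.67. In gene bodies of these 3 lists under a mean of 50, 38 of 39 regions were lost against 87.9% of all gene body regions at that level, and at 50 and over 5 of 9 were lost and 0 gained against 35.8% lost and 45.3% gained.

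Few cytokine genes were listed, and the share of all genes that were listed was not compared. Over all autosomal regions 65.8% were lost and 28.1% gained as deposited, and in gene bodies 73.9% and 19.8%. Of 54 cytokine and chemokine genes 4 had a region, 4 regions were lost and 1 gained (median -1.60, centred -0.66, where 0 were lost and 1 gained). Il34, a macrophage growth factor, held 17.9 and 6.2 against 46.2, 57.1 and 27.0. Both regions of Cx3cl1, the chemokine fractalkine, fell, by 2.58 and 0.97, and Vegfa fell by 1.60. The gained region was in Tnfsf13b, the B cell factor BAFF, at 46.8 and 45.9 against 30.0, 24.4 and 18.4. Among cytokine receptors and Jak-Stat genes 21 of 26 regions were lost and 2 gained (median -1.22). Centred, the median was -0.28 and the balance turned, with 2 lost and 5 gained. Il12rb1 held 3.98 and 0 against 23.1, 25.9 and 12.3, and all 3 Stat3 regions fell. Il1r2, the decoy receptor for interleukin 1, held 28.9 and 27.3 against 72.8, 62.5 and 57.8. The gains were in Il4ra, near its start, and in Ptpn11. Of 18 regions in interferon receptor and response genes 15 were lost (median -1.51, centred -0.57, where 3 were lost and 3 gained), among them Irf1, Irf2, Adar and Nlrc5, while Oas2 and single regions of Ifnar2 and Trim25 were gained.

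Most regions of matrix and adhesion genes were lost on the deposited scale. The shares were near that of all gene body regions (73.9%), except for a higher one in integrins and focal adhesion (85.9%). Of 45 collagen regions 35 were lost (77.8%) and 8 gained (median -1.34, centred -0.40), and with centred libraries 3 were lost and 9 gained. Col4a1, a basement membrane chain, held 1.99 and 3.72 against 20.6, 14.5 and 17.2, and all 4 Col27a1 regions were lost as deposited, though 3 of them turned positive with centred libraries. Col19a1 was an exception, with 3 of its 4 regions gained, and Col25a1 held 144 and 186 against 79.6, 78.5 and 109 in 1 region and fell in 2 others. Of 45 regions in matrix proteases and inhibitors 34 were lost (75.6%) and 9 gained (median -1.27, centred -0.33), against 0 lost and 10 gained when centred. Adam12 had 2 of each, Adamts17 4 lost of 4, and Mmp25 2 lost of 2. Other matrix proteins had 40 of 51 regions lost (78.4%, median -1.18, centred -0.24), against 3 lost and 10 gained when centred. Emilin1, an elastic fibre protein, held 37.8 and 23.6 against 70.2, 70.1 and 67.6. For integrins and focal adhesion 55 of 64 were lost (85.9%, median -1.27, centred -0.33), against 4 lost and 6 gained when centred, and the Mylk region at 65.7 and 64.5 against 106, 121 and 102 went from -0.74 to 0.20 with centring.

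In signalling and patterning genes losses also outnumbered gains as deposited, in shares near that of gene bodies, and the reverse held with centred libraries. Wnt genes had 48 of 62 regions lost (77.4%, median -1.21, centred -0.27), against 4 lost and 13 gained when centred. A region 250.5 bp from the start of Ctnnbip1, an inhibitor of beta-catenin, held 3.98 and 6.2 against 31.7, 20.6 and 24.6. TGF-beta and BMP genes had 36 of 47 lost (76.6%, median -1.39, centred -0.45; 3 lost and 11 gained when centred), among them Acvr1b and Ltbp4, at -2.30 and -2.34. Of 29 regions in Hox, Tbx and other limb patterning genes 23 were lost (79.3%, median -1.58, centred -0.64), against 2 lost and 6 gained when centred. Hoxa3 held 71.7 and 59.5 against 112, 102 and 125, which is -0.78 as deposited and 0.16 centred.

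Of 11 regions in genes of the DNA methylation machinery 7 were lost and 2 gained (median -0.99, centred -0.05), against 0 lost and 3 gained when centred. Over all gene body regions 73.9% were lost and 19.8% gained as deposited. Tet3 and Tet1, which oxidise methylcytosine, held 21.9 and 17.4 against 65.9, 64.0 and 33.2, and 32.9 and 13.6 against 74.5, 83.8 and 38.1. The methyltransferase gene Dnmt3a fell in 2 regions, by 1.69 and 0.88, and the second turned to 0.06 with centring. Mbd5, of the methyl-CpG-binding domain family, was gained at 13.9 and 12.4 against 2.57, 3.05 and 2.46. Histone modifiers and remodellers had 69 of 83 regions lost (83.1%, median -1.31, centred -0.37), against 4 lost and 12 gained when centred. Arid1a held 1.00 and 1.24 against 12.8, 13.7 and 8.60. Imprinted genes had 22 of 31 lost (71.0%, median -1.27, centred -0.33; 3 lost and 9 gained when centred), but both gained and lost regions occurred in Kcnq1, Sfmbt2, Slc38a4 and Trappc9.

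Among 23 gene lists, the one for protocadherins and neuronal adhesion was alone in having more gains than losses on the deposited scale, where 22 lists had more losses, against 2 with centred libraries. Of its 115 regions 58 were gained and 50 lost, with a median of 0.31 as deposited and 1.25 centred. All 5 regions of Robo1, a guidance receptor, were gained, and the 1 with the highest values held 284 and 356 against 177, 194 and 219. The contactin genes Cntn4 and Cntn5 had 3 gained regions each and 0 lost. Slit3, which encodes a Robo ligand, went the other way, with 8 of 10 lost and 0 gained, and Nfasc had 4 and Ncam1 3 regions, all lost. The list was measured at higher levels, with a median of 44.7 against 24.8 over all autosomal regions. In gene bodies at a mean of 50 and over, 80.0% of its 50 regions were gained against 45.3% of all gene body regions at that level, and under 50 the shares were 26.7% and 10.4%. Over all gene bodies 33.8% of regions were gained in genes of 200 kb and over, and the list was not set against genes of like length. Among long genes outside the list, Park2 and Pde4d also had more gains than losses, while Wwox and Cacna1c had more losses. These lists and counts describe the table, and no test of the list was made. Without the first or the second TNF-treated library 23 of 23 lists had more losses than gains, so this exception rests on having both.

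**Figure D4:**
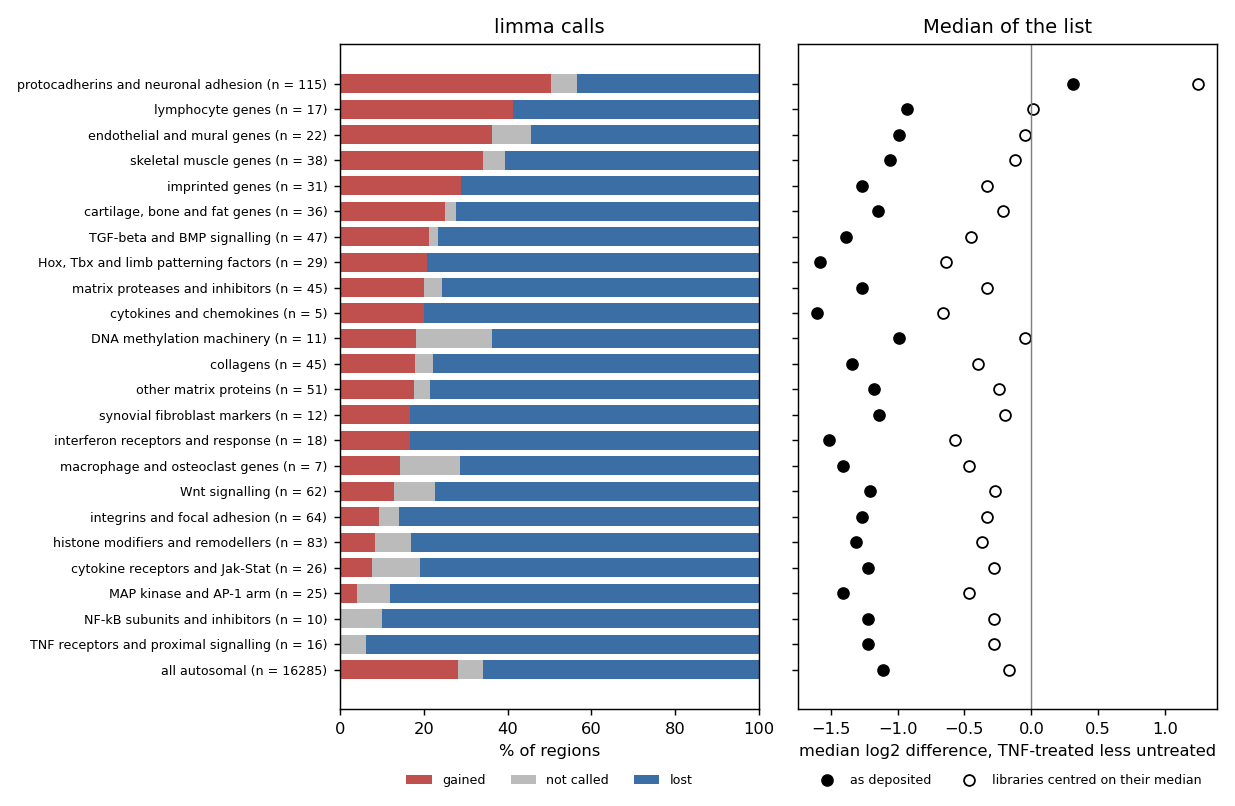
Share of regions gained, not called and lost (left) and median log2 difference (right) for 23 gene lists and all autosomal regions, with filled circles for the deposited scale and open circles for libraries centred on their median. Only the neuronal adhesion list has a positive median on the deposited scale, and TNF, NF-kB and MAP kinase lists have the smallest shares of gains.

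Markers of fibroblasts and of other cells of the joint gave no level of those cells, since DNA is present in every cell whether a gene is used or not. Over all autosomal regions 65.8% were lost and 28.1% gained as deposited, and in gene bodies 73.9% and 19.8%. With centred libraries 5.94% of autosomal regions were lost and 32.7% gained. Differences of the lists from these shares were not tested. Of 12 regions at 9 of 30 synovial fibroblast markers 10 were lost and 2 gained (median -1.14, centred -0.20; 1 lost and 2 gained when centred). Pdpn, the podoplanin of the lining layer, held 2.99 and 2.48 against 18.8, 12.2 and 11.1. Pi16 held 64.7 and 62.0 against 103, 101 and 134, which turned from -0.81 to 0.13 with centring. Macrophage and osteoclast genes had 5 of 7 lost and 1 gained (-1.41, centred -0.47; 0 lost and 2 gained when centred), with Itgam at 6.97 and 2.48 against 28.2, 22.8 and 12.3. Lymphocyte genes had 7 of 17 gained and 10 lost (-0.93, and 0.01 centred, where 7 were gained and 0 lost), and Ebf1 had regions of both kinds. Endothelial and mural genes had 8 of 22 gained and 12 lost (-0.99, centred -0.05, where 10 were gained and 0 lost). Skeletal muscle genes had 13 of 38 gained and 23 lost (-1.06, centred -0.12, where 15 were gained and 3 lost), and cartilage, bone and fat genes 9 of 36 gained and 26 lost (-1.15, centred -0.21, where 10 were gained and 3 lost). In the last list Runx1, a factor of bone and blood, had 1 read against 42 in a gene body region, a 23.1-fold lower value (3.92 to 933). The medians of the lymphocyte, endothelial and muscle lists turned positive, to 0.49, 0.22 and 0.32, when only regions with a mean of at least 20 were kept.

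Single long genes showed how regions of 1 gene could part. Wwox, an oxidoreductase gene that spans a fragile site, had the most listed regions, 21, of which 17 were lost and 2 gained. Cacna1c, a calcium channel gene, had 14 lost of 14, from -2.07 to -0.64. Slc39a11, a zinc transporter gene, had 11 of 15 lost and 0 gained, and Camta1, a transcription activator gene, 12 of 14 lost and 2 gained. Park2 was the reverse, with 11 of 13 gained, the one of highest values at 422 and 543 against 323, 331 and 367, and 2 lost regions 686 and 705 kb from the start, the second at 0.02 with centring. Pde4d, a cyclic AMP phosphodiesterase gene, had 8 gained and 4 lost of 13. Over all 773 genes with at least 3 listed regions, 301 had only losses, 18 had only gains and 342 had both.

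**Figure D5:**
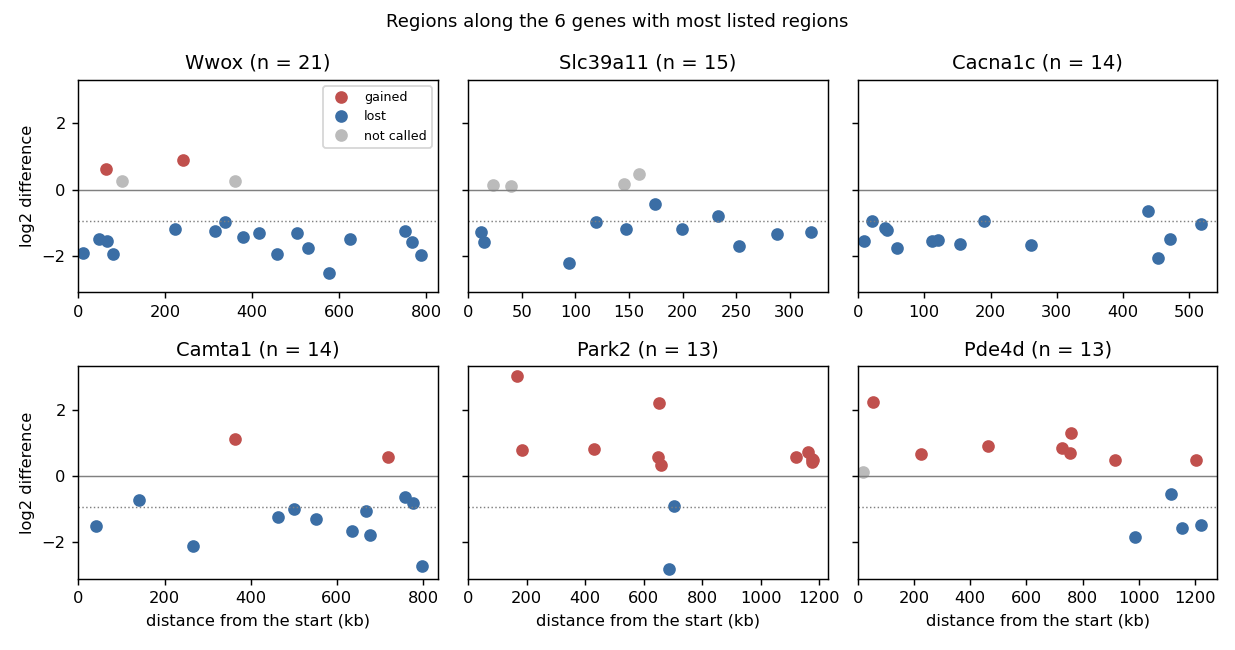
Log2 difference of each listed region against its distance from the gene's start in kb, for the 6 genes with most listed regions, coloured by call. The dotted line is the difference of a region at the centre of its library (-0.94), and Park2 and Pde4d have most of their regions above 0.

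A few regions held values far above the rest. Of 20 regions with a mean of 1000 and over, 14 were gained, 2 lost and 4 not called, and 5 of them lay between 3005151 and 3037200 on chromosome 9. There, chr9:3011851-3013050 held 225074 and 252803 against 107576, 121312 and 192362, with the third untreated library nearest to the TNF-treated ones. How reads from repeated DNA were placed is not stated in the sources at hand.

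The untreated libraries of this comparison were also the controls of the comparison of Tg197 with WT cells at 8 weeks, so values are set side by side and nothing is drawn from their likeness. Those tables were normalized separately. At Ikbke, where TNF-treated values were 1.99 and 4.96, the 3 Tg197 libraries held 5.30, 5.54 and 2.94 against 16.1, 31.5 and 11.0 in the untreated ones. At Mir490 the Tg197 libraries held 105, 44.3 and 45.6 against 25.4, 33.0 and 35.4. At Hoxa3 they held 34.5, 58.1 and 33.8 against 81.2, 81.7 and 71.8. The comparisons of Tg197 with WT at 3 and 11 weeks have controls of their own. At 3 weeks, 626 of the autosomal regions (3.84%) overlapped a listed region by at least 1 bp (5.04% of those). Of the 635 overlapping pairs 164 were gained after TNF and lower in Tg197, 30 gained and higher, 187 lost and higher, and 130 lost and lower. At 11 weeks 319 regions (1.96%) overlapped, or 4.48% of that list, with 85, 31, 123 and 49 pairs in the same order. Pairs outside these groups are not broken down here. The shares of higher and lower regions in the whole lists, and the overlap that unrelated lists would have, were not compared. Nothing on direction is therefore drawn from these pairs.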

How the data were processed

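Per the labels' protocols, DNA was sonicated to 250 bp on average, captured with a methyl-CpG-binding protein, eluted at low and high salt with fractions combined, and read as pairs of 100 bp. The submitters' processing notes name BWA, TopHat, TopHat2, Cufflinks and Cuffdiff and build mm9, with no roles. Which program, test and filters the authors used is not stated in the sources at hand. Per the file headers, the deposited signal is a group's mean normalized read value, with a deposited log2 fold change, p-value and adjusted p-value per region, and single-library values are packed in 1 cell, which the check of units treats as another kind of value. Values within a library were whole multiples of its smallest step (within 0.1 read, for 100% of values up to 20 reads), which gave read numbers. Of the values up to 20 reads, 57.7% to 61.2% were an even number of reads, so reads are not independent molecules, and 95% intervals and floors cover counting error only. All columns had a group (0 were left out).

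The design named limma (3.58.1, in R 4.3.3, with a mean trend) on log2(value + 1), two-sided, adjusted over the 16898 regions at 0.05. On simulated data it called 37 of 100 changes of log2 size 1, 91 of 100 of size 2 and 4 of 16698 unchanged regions. In that simulation unchanged regions had equal means in both groups, so it does not cover the difference in spread between the real libraries. Alternatives were pseudocounts of 0.1 and 10, a minimum mean of 20, the duplicate as a library, centring, voom on recovered reads, a minimum absolute log2 fold of 1, autosomes alone, leaving out each library and, added after seeing the data, 1 region per gene and leaving out regions with a deposited p above 0.05. Named regions were called, reached a mean of 10 or more in whichever group was higher and had no overlap, 1 per gene, without predicted symbols: the 8 largest changes each way in promoters, 6 in gene bodies and 2 intergenic, up to 3 per list by adjusted p, and the 6 genes with most regions. Other list members and starts were named after their values were seen, and a few regions that the rule names are not reported here. The members and the 23 gene lists were chosen with earlier results of these data known. Python 3.11.15 with pandas 2.3.3 was used.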

Additional observations from a re-analysis of the deposited data

Results flagged for a closer look

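Regions on the sex chromosomes belong to no comparison above. Chromosome X had 603 listed regions, of which 440 were called gained after TNF and 116 lost by limma (73.0% gained, against 28.1% on the autosomes), which is why it is listed. Its median values were 99.5 and 107 in the TNF-treated libraries against 66.8, 62.5 and 67.6 in the untreated ones, with a median difference of 0.59 as deposited and 1.53 with centred libraries. Chromosome Y had 10 listed regions, of which 8 were gained and 1 lost, with medians of 23.4 and 28.5 against 9.85, 15.6 and 15.4. The median level of the listed regions was 80.2 on X and 18.8 on Y, against 24.8 on the autosomes, and the part of level in the result was not tested.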

How the results depend on the processing

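Calls over all 16898 regions numbered 15855. That count was 9093 among regions with a mean of at least 20, 6795 with centred libraries and 10192 with a minimum absolute log2 fold of 1. Autosomal losses went from 10710 to 4948 and 967 under the first and second of these. Autosomal gains went from 4580 to 1099 under the third. Leaving out 1 library gave 10967 to 15870 calls, 2540 to 4507 gains and 8055 to 10799 losses, and 21 to 23 lists with more losses than gains, against 22. With centred libraries 2 of 23 lists had more losses than gains. Pseudocounts of 0.1 and 10, the duplicate as a library, voom, autosomes alone and leaving out regions with a deposited p above 0.05 moved no count of calls by over 1.5 times, but a pseudocount of 10 moved 17 of 23 list medians towards 0, with no change of sign, and the class difference within 250 bp of a start from 0.60 to 0.33. In class means, taking off no library mean gave -0.51 for intergenic regions, -0.13 within 250 bp of a start and -0.70 at 250 bp to 1 kb, and the last class was -0.01 with a pseudocount of 10 and ran from -0.0 to 0.05 without single libraries. Centring turned Traf2 (0.27), Mylk (0.20), Lgr5 (0.26), Hoxa3 (0.16), Pi16 (0.13) and the lymphocyte median (0.01), and besides these 5 regions another 34 of the 98 named ones were no longer called. A minimum mean of 20 turned the lymphocyte, endothelial and muscle medians (0.49, 0.22 and 0.32). The edgeR fit was not run, since the packed values are not counts as deposited. No paired analysis was possible because the packed values carry no replicate number. Weak regions rest on few reads (medians of 5.97 and 4.96 after TNF at a mean of 10 to 20), which limits their precision.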
